A study of Mus musculus with 94 samples.

Results

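The cells described are the Ski-KO cells of a single-cell RNA sequencing series, split by the 6-digit prefix that opens each cell's description: 27 cells carry 051716 and 19 carry 051816. These 46 cells are all the Ski-KO cells among 94 cells in the series. The other 48, all Ski-WT, carry the prefix 061016 and take no part in the comparison. A few of their values are given as background, where genotype and prefix cannot be told apart. Both Ski-KO groups have the same labels otherwise. They are C57BL/6 mouse haematopoietic stem cells (HSCs) that came from fetal liver, had been in transplanted mice for 6 months and were recovered from hindlimb bone marrow. Cells were enriched on CD117 beads and sorted as Sca-1+ c-Kit+ Cd150+ Cd48- cells that were also Cd45.2+ and Lineage-, the SLAM gate for stem cells, then captured singly on a Fluidigm C1 system and amplified with SMARTer chemistry. Nothing in the labels gives the deleted part of Ski, the cells it was deleted in or the means, and the number of donors or recipients and the meaning of the prefix are also not given in them. A prefix may cover a chip, a day or an animal, so each was treated as 1 sample: the values below describe these cells, with no test and no p-value, and any spread given is between cells.

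A haematopoietic stem cell keeps the blood system supplied for life and spends most of its time out of the cell cycle. Ski is a co-repressor that binds Smad proteins and dampens transcription driven by TGF-beta. Immediate early genes, such as Fos, Fosb and Egr1, are switched on within minutes of a stimulus from transcription factors already present in the cell, need no new protein synthesis, and are also known to be induced when tissue is dissociated and cells are handled. Ly6a encodes Sca-1, an antigen of the sort gate, and Cd34 encodes a sialomucin used to divide stem and progenitor cells of mouse bone marrow.

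The values are log2(TPM + 1), where TPM is each transcript's length-corrected share of the cell's RNA. A gene's difference is its mean over the 051716 cells minus its mean over the 051816 cells on that scale, and a gene was counted at a difference of 2 or more. Detection means at least 5 TPM, and shares of cells carry exact Clopper-Pearson 95% intervals, which cover counting error only. TPM keeps no sequencing depth. The 051716 cells had a median of 3248 genes above 0, from 2326 to 4930, and the 051816 cells a median of 3679, from 2540 to 4707. Each description also carries a letter and a number, read here as a well row and column. Whether they refer to the C1 chip or to a plate was not established. The 051816 cells all had well columns 1 to 3. The 051716 cells spread over columns 1 to 12, with 3 of them in columns 1 to 3. Well position and prefix therefore cannot be told apart.

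Ski itself did not check the genotype, because it was seldom detected. Its transcript reached 5 TPM in 2 of 27 cells of 051716, in 1 of 19 cells of 051816 and in 6 of 48 Ski-WT cells. Genes of the sort gate followed it at the transcript level only in part. Kit, the stem cell factor receptor, reached 5 TPM in 23 of 27 and 15 of 19 cells, and Cd48 reached it in none. Slamf1, which encodes Cd150, was detected in 2 cells of each prefix, and Ptprc, which encodes Cd45, in 16 of 27 and 11 of 19. Xist did not reach 5 TPM in any cell of either prefix, and the Y-linked Ddx3y was detected in 11 cells of each.

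Prefix 051716 was marked by higher means of immediate early genes and of a few surface and interferon-inducible genes, led by Ifi27, Dusp2, Ly6a, Egr1 and Fosb. Prefix 051816 had higher means of a larger number of genes, among them Serpina3g, Psma1, Chrac1 and Ndufs3, and these included subunits of the proteasome and of the respiratory chain. Of 13244 genes in the table, 6376 were described, those above 0 in 25% or more of either prefix's cells. Their median difference was −0.05 and their median absolute difference 0.57. A difference of at least 2 was seen for 42 genes higher in 051716 (0.659% of those described) and for 188 genes higher in 051816 (2.95%). No gene separated the prefixes without overlap.

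The share of genes past 2 that were higher in 051716 depended on the measure, each of which selects its own set of genes. It was 18.3% of 230 genes by the mean of log2 values, 35.98% of 189 after adjustment for genes detected per cell and 30.9% of 314 with only the 051716 cells of well columns 1 to 6. By the log2 ratio of mean TPM it was 55.9% of 1390 genes, and by the median of cells above 0 it was 56.8% of 2228. Of all described genes, 4187 (65.7%) had the same sign in the mean of log2 values, in mean TPM and in the share of cells detected, as did 41 of the 42 and 185 of the 188, which were chosen for a large value of the first.

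**Figure D1:**
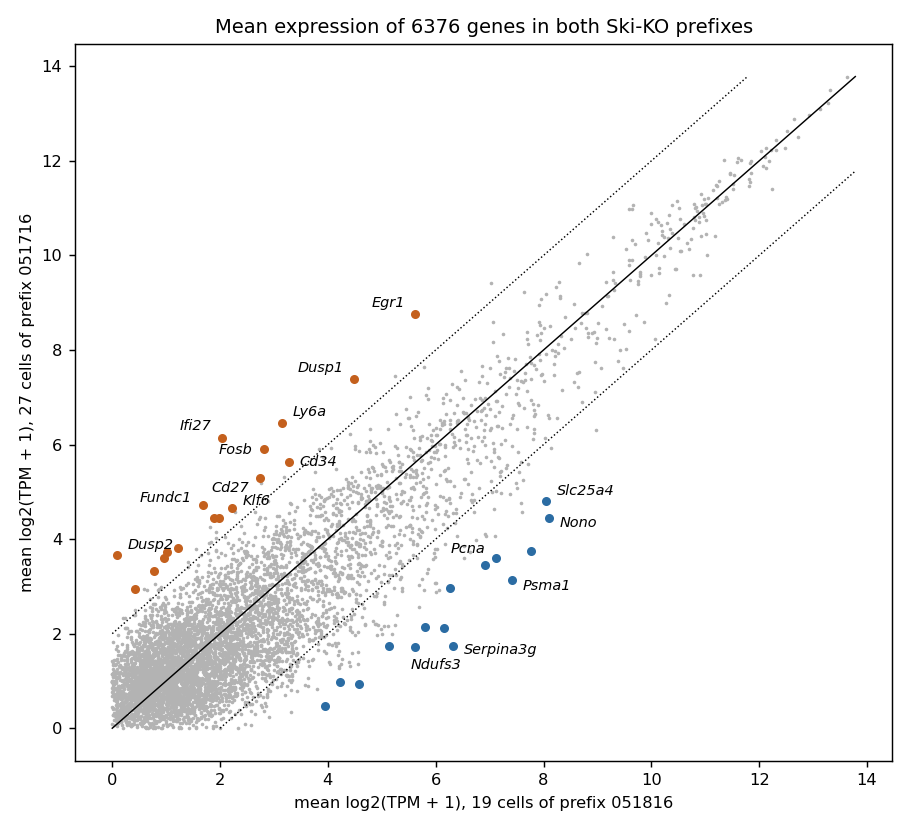
Mean log2(TPM + 1) of each of 6376 genes in 19 Ski-KO cells of prefix 051816 (horizontal axis) and in 27 of prefix 051716 (vertical axis). The solid line marks equal means and the dotted lines a difference of 2; coloured points are the named genes, orange where higher in 051716 and blue where higher in 051816. Most genes lie near the solid line, and more genes lie past the lower dotted line (188) than past the upper one (42).

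The prefixes overlapped when whole profiles were compared. The median Spearman correlation over the described genes was 0.28 between pairs of 051716 cells, 0.29 between pairs of 051816 cells and 0.28 between cells of different prefixes. The most similar cell had the same prefix for 15 of 27 cells of 051716 (55.6%, where 57.8% of the other cells carry that prefix) and for 16 of 19 cells of 051816 (84.2%, where 40% of the others do). The first principal component held 5.71% of the variance and followed the number of genes above 0, with a Spearman correlation of 0.89 over the 46 cells. Its median was −21.7 in 051716 and 13.2 in 051816, with ranges that overlapped. The third component, with 2.79% of the variance and a correlation of 0.11 with genes above 0, separated the prefixes more: its values were above 0 in 7 of 27 cells of 051716 and in 17 of 19 of 051816, with medians of −8.98 and 23.4.

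Fosb, an AP-1 subunit, was the most evenly different of the 4 marker genes. In 051716 it ranged from 0 to 8.66 with a median of 6.22, and its mean was 5.91 ± 2.19 (SD, n = 27 cells). In 051816 it ranged from 0 to 7.65 with a median of 1.71, and its mean was 2.81 ± 2.89 (SD, n = 19 cells). The difference was 3.10, the fifth highest of all described genes. Fosb was detected in 25 of 27 cells (92.6%, interval 75.7 to 99.1) against 8 of 19 (42.1%, interval 20.3 to 66.5). The prefixes overlapped over most of the range, but only 2 cells of 051716 were under 5 TPM, against 11 of 051816.

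Klf6, a zinc finger factor of the Krüppel-like family and also an immediate early gene, had values across the whole range in both prefixes. Its values in 051716 ran from 0 to 10.1 with a median of 6.15 (mean 4.65 ± 3.84, SD), and in 051816 from 0 to 8.55 with a median of 0.70 (mean 2.22 ± 2.97, SD). The difference was 2.42. Detection was in 16 of 27 cells (59.3%, interval 38.8 to 77.6) and in 6 of 19 (31.6%, interval 12.6 to 56.6).

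Ly6a showed the largest difference of the 4 markers. The 051716 cells ranged from 0 to 12.01 with a median of 8.43 (mean 6.46 ± 4.23, SD), and the 051816 cells from 0 to 10.8 with a median of 0 (mean 3.14 ± 4.32, SD). The difference was 3.32, the third highest of all described genes. Ly6a reached 5 TPM in 20 of 27 cells (74.1%, interval 53.7 to 88.9) and in 7 of 19 (36.8%, interval 16.3 to 61.6). Since every cell had passed a gate on Sca-1 protein, 7 cells of 051716 and 12 of 051816 were sorted as Sca-1 positive with the Ly6a transcript under 5 TPM.

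Cd34 had the smallest difference of the 4, at 2.35. In 051716 it ran from 0 to 11.4 with a median of 6.98 (mean 5.63 ± 3.98, SD), and in 051816 from 0 to 8.76 with a median of 2.84 (mean 3.28 ± 3.21, SD). Detection was closer than the means, with 18 of 27 cells (66.7%, interval 46.04 to 83.5) and 10 of 19 (52.6%, interval 28.9 to 75.6). The means were further apart on the linear scale: mean TPM was 374 in 051716 and 69.7 in 051816.

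Joint detection of the 4 markers by cell follows in large part from the share of cells with each. All 4 reached 5 TPM in 10 of 27 cells of 051716 and in 0 of 19 of 051816, and at least 3 of them did in 19 and 3 cells. Fosb and Ly6a were both detected in 19 of 27 cells and in 2 of 19, where the product of their single shares gives 18.5 and 2.95 cells. Ly6a and Cd34 were unrelated in level within a prefix, with Spearman correlations of 0.03 over 27 cells and 0.04 over 19, and the cells of a prefix share whatever the prefix stands for. For the background, the Ski-WT means were 2.89 for Fosb, 2.13 for Klf6, 5.35 for Ly6a and 4.45 for Cd34, so the Ski-WT level lay near that of 051816 for the first pair and between the Ski-KO prefixes for the second.

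Restricting the 051716 cells by well column left the direction of the markers as it was, but the 051816 cells all stayed in columns 1 to 3, so position was not matched. With only the 15 cells of 051716 from well columns 1 to 6, the differences were 3.59 for Fosb, 3.02 for Klf6, 3.22 for Ly6a and 2.44 for Cd34. With only the 12 cells from columns 7 to 12 they were 2.497, 1.68, 3.43 and 2.24 in the same order. By the log2 ratio of mean TPM the values were smaller for all but Cd34, at 1.65 for Fosb, 1.97 for Klf6 and 1.29 for Ly6a, so for these 3 the mean-TPM ratio is under the limit of 2.

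**Figure D2:**
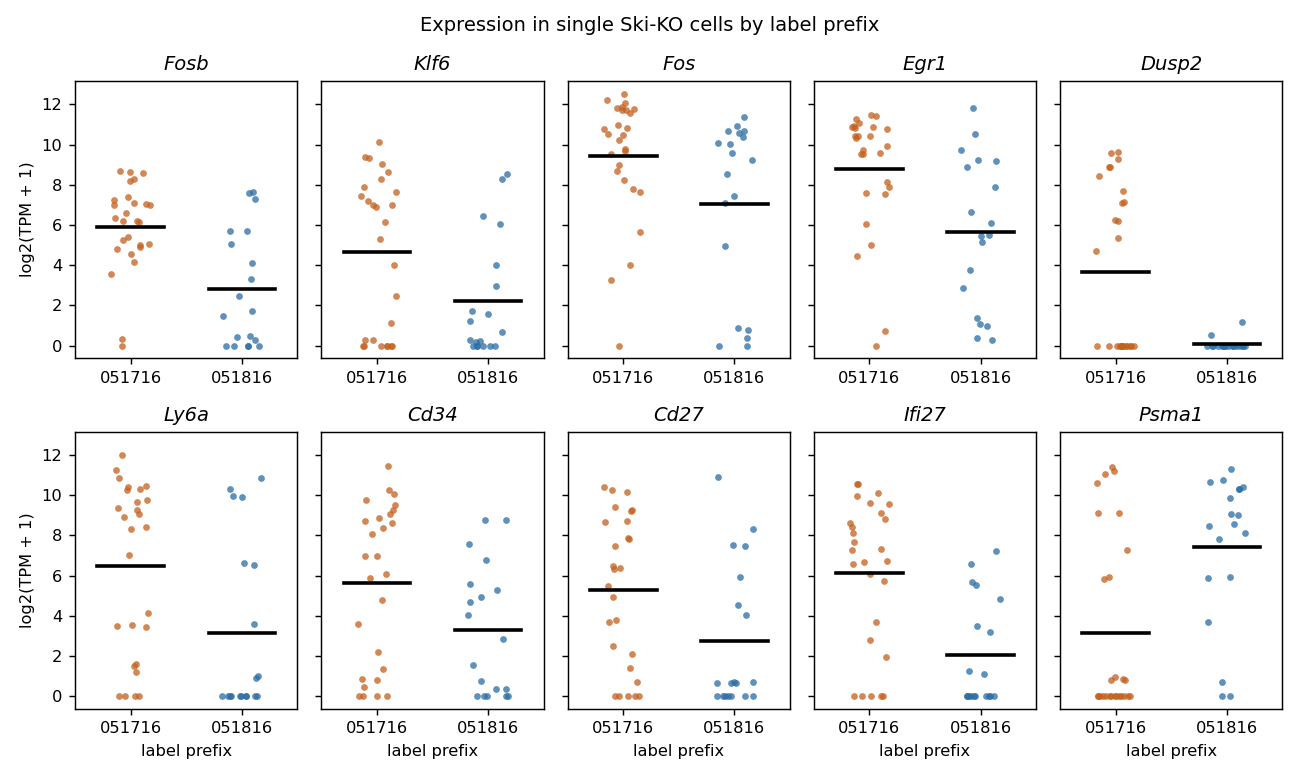
Log2(TPM + 1) of 10 genes in each Ski-KO cell, by label prefix (051716, 27 cells, orange; 051816, 19 cells, blue); each point is a cell and the black bar is the mean. Fosb, Fos and Egr1 are high in nearly all cells of 051716 and spread from under 1 upward in 051816, Dusp2 is under 5 TPM in all 051816 cells, and Psma1 shows the opposite order.

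Immediate early genes as a list were higher in 051716. Of 48 listed genes 45 were in the table and 28 were described. The median difference of the 28 was 1.04, against −0.05 over all described genes, with 23 positive and 5 negative. Members at a difference of at least 2 numbered 6 higher in 051716 (21.4% of the 28, where 0.659% of all described genes were) and 0 higher in 051816. A gene above 0 in enough cells of either prefix could enter, and the 17 members left out were near 0 in most cells. With every member above 0 in at least 1 Ski-KO cell included, the median was 0.49. By cell, a median of 14 of the 28 members reached 5 TPM in 051716, from 1 to 21, and 9 in 051816, from 1 to 19.

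All 5 described AP-1 subunits had positive differences, with a median of 1.09. Fos, the partner of Jun in the best known AP-1 dimer, ranged from 0 to 12.5 with a median of 10.5 in 051716 and from 0 to 11.4 with a median of 9.24 in 051816. With detection in 26 of 27 and 14 of 19 cells, its difference was 2.39. The upper ends overlapped, and 5 cells of 051816 against 1 of 051716 were under 5 TPM. Jun was detected in nearly every cell, 26 of 27 and 18 of 19, with means of 7.56 ± 2.09 and 6.47 ± 1.61 (SD) and a difference of 1.09. Jund differed by 0.86 and Junb by 0.47. Fosl1 and Fosl2 were not described: Fosl1 was above 0 in 1 cell of the 46 and Fosl2 was listed at 0 in all.

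Among the other transcription factors, 6 of 7 had positive differences. Egr1, a zinc finger factor induced by growth factor signalling, ranged from 0 to 11.5 with a median of 9.93 in 051716 and from 0.26 to 11.8 with a median of 5.49 in 051816. Its difference was 3.14, and it was detected in 25 of 27 and 14 of 19 cells. The highest single value belonged to 051816, so the prefixes overlapped over the whole range and differed in how many cells were high. Klf4 differed by 1.04, Ier5 by 1.10, Ier2 by 0.39 and Klf2 by 0.11. Myc, the growth-promoting factor, went the other way: its mean was 4.31 in 051716 and 6.14 in 051816, a difference of −1.83. Egr2, Egr3, Nr4a1, Nr4a2 and Atf3 reached 5 TPM in at most 3 cells of either prefix and were not described.

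The feedback regulators and other early genes included the most one-sided member. Dusp2, a nuclear phosphatase that inactivates MAP kinases, had a mean of 3.67 ± 4.04 (SD) in 051716 with values from 0 to 9.65 and a median of 0, and a mean of 0.09 ± 0.29 (SD) in 051816 with values from 0 to 1.18. It was detected in 13 of 27 cells (48.1%, interval 28.7 to 68.1) and in 0 of 19 (interval 0 to 17.6), and the difference was 3.58. Ski-WT cells had a mean of 1.23, with 8 of 48 detected. Its relative Dusp1, also a MAP kinase phosphatase, ranged from 0 to 11.4 with a median of 8.89 in 051716 and from 0 to 10.7 with a median of 3.40 in 051816. Dusp1 was detected in 22 of 27 and 10 of 19 cells and differed by 2.89. Dusp6, another phosphatase of the family, differed by 0.88.

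Smaller differences were seen for Ier3 at 1.60, Zfp36, which destabilises AU-rich transcripts, at 1.21, Nfkbiz at 1.18 and Rhob at 1.14. Ier3, Ier5 and Pim1 were detected in 7, 5 and 6 cells of 051716 and in 0 cells of 051816. They were picked with these values in view, and the share of all described genes with such a pattern was not counted. The members with negative differences were Ppp1r15a, a regulatory subunit of the phosphatase that acts on eIF2-alpha, at −1.05, Cd69 at −0.57, Gadd45a at −0.55, Zfp36l1 at −0.00 and Myc. Zfp36l1 and Klf2 were thus level between the prefixes.

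The immediate early genes did not vary as a single block from cell to cell. Within 051716 the Spearman correlation over 27 cells was 0.63 between Fos and Egr1, 0.54 between Klf6 and Fos and 0.50 between Fosb and Dusp1, but 0.01 between Fosb and Fos. Within 051816, over 19 cells, it was 0.46 between Fos and Egr1, 0.44 between Klf6 and Fos, 0.49 between Fosb and Dusp1 and 0.73 between Fosb and Fos. These are descriptions of cells that share a prefix and differ in genes detected. The mean level of the 28 members had a correlation with genes above 0 of 0.33 in 051716 and of −0.01 in 051816.

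**Figure D3:**
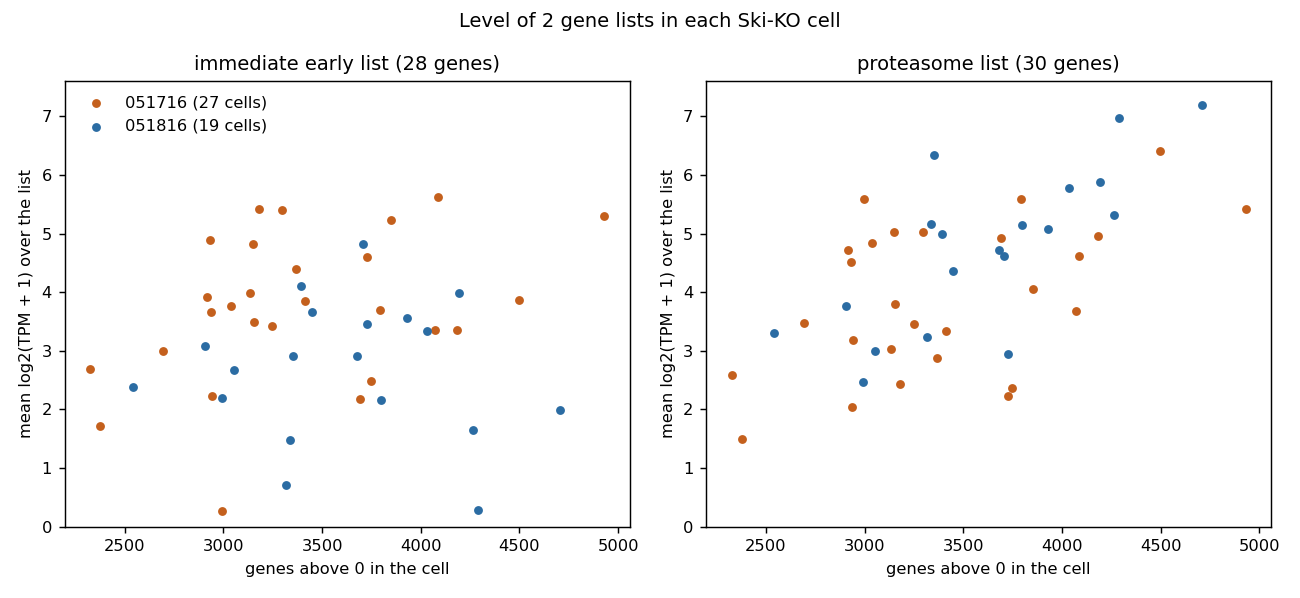
Mean log2(TPM + 1) over the 28 immediate early genes (left) and the 30 proteasome genes (right) in each Ski-KO cell, against the number of genes above 0 in that cell; orange points are 27 cells of prefix 051716 and blue points 19 cells of prefix 051816. Immediate early levels lie higher in orange (mean 3.73) than in blue (mean 2.70), proteasome levels lie higher in blue (4.75 against 3.91) and go up with the number of genes.

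The promoters of 4 of the 6 immediate early genes with a difference of at least 2 are shown because these genes share a direction and a class. The sequences are from RefSeq on GRCm38.p6, from 250 bases before to 50 bases after a transcript start, 5′ to 3′ on the strand of the gene. Capitals mark TGACG on either strand, the core of the cyclic AMP response element bound by CREB and ATF factors; the palindrome TGACGTCA holds it on both strands. The windows are chr7:19309996-19310295 on the minus strand for Fosb, chr12:85473640-85473939 on the plus strand for Fos, chr17:26508423-26508722 on the minus strand for Dusp1 and chr13:5861239-5861538 on the plus strand for Klf6.
Fosb: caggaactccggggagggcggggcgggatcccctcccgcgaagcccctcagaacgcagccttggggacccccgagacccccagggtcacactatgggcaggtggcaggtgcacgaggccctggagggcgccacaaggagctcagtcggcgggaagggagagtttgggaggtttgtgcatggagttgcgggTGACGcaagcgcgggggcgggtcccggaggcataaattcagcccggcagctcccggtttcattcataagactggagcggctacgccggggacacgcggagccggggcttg
Fos: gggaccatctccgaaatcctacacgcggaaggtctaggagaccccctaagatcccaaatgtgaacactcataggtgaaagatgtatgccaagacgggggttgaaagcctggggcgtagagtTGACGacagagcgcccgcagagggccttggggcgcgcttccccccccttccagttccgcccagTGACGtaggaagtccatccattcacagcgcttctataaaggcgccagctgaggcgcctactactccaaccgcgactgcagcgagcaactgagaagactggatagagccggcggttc
Dusp1: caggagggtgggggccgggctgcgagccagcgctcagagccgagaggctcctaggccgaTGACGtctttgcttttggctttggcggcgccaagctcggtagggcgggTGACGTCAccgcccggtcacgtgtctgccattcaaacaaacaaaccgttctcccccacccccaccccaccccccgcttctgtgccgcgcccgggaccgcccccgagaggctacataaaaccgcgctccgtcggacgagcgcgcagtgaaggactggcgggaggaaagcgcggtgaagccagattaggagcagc
Klf6: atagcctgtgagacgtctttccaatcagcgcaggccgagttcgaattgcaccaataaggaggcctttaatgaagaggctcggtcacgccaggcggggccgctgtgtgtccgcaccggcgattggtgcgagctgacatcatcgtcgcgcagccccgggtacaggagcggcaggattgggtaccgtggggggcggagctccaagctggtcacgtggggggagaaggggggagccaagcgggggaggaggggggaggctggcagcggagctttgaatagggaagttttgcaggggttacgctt
The Fosb window holds 1 match, 60 bases before the start, and the Fos window 2 matches, 129 and 66 bases before it. The Dusp1 window holds 3 matches, 2 of which form the palindrome, and the Klf6 window none. TGACG occurs in 20.8% of 32851 such windows. It occurs in at least 1 window of 11 of the 22 immediate early genes that were matched by symbol, against 23.05% of 27025 genes. Windows of 1 chromosome were left out beforehand, so any immediate early members there are in none of these counts. The palindrome occurs in 1.79% of windows, in 2.03% of genes and in 3 of the 22, Dusp1, Btg2 and Ppp1r15a. TGANTCA, bound by AP-1, occurs in 7.81% of windows, in 8.97% of genes and in 1 of the 22. The CArG box, bound by serum response factor, occurs in 1.63% of windows, in 1.81% of genes and in 1 of the 22. A match is a description of letters and says nothing of binding in these cells.

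Surface genes of stem and progenitor cells split by gene. Of 15 described sort and surface markers, 3 were at least 2 higher in 051716 (20% of the list, where 0.659% of all described genes were) and 0 in 051816 (2.95% of all). With 7 differences positive and 8 negative, the median was −0.03, and it ran from −0.14 to 0.23 when single cells were left out. Besides Ly6a and Cd34 there was Cd27, a TNF receptor family member found on most multipotent cells. Cd27 ranged from 0 to 10.4 with a median of 6.33 in 051716 and from 0 to 10.9 with a median of 0.64 in 051816. Detected in 18 of 27 and 7 of 19 cells, it had a difference of 2.56 with overlapping ranges. Flt3, a receptor of multipotent progenitors, was detected in 9 of 27 and 2 of 19 cells with a difference of 1.32. Cd9, a tetraspanin, had a difference of −1.60 and Eng, a TGF-beta co-receptor, of −1.31. Kit, Cd47 and Itga2b were nearly level between the prefixes, with differences of −0.31, −0.03 and −0.08.

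Regulators of stem cell identity were split by gene. Among 34 described members the median difference was −0.23, with 16 positive (47.1%, where 47.3% of all described genes were). A difference of at least 2 was seen for 0 higher in 051716 and 3 higher in 051816 (8.82%, where 2.95% of all described genes were). Those 3 are transcription factors of the stem cell network. Fli1, an ETS factor, was detected in 17 of 27 cells of 051716 and 18 of 19 of 051816, with medians of 6.77 and 7.94 and a difference of −2.45. Gata2 was detected in 18 of 27 and 16 of 19 cells, with medians of 6.28 and 8.26 and a difference of −2.41. Gfi1b, a repressor needed for megakaryocyte and erythroid cells, was detected in 6 of 27 and 11 of 19 cells and differed by −2.06. In the other direction Ikzf2 differed by 1.69, Mllt3, which sustains stem cell self-renewal in culture, by 1.64 and Mecom by 1.41. Lmo2 and Angpt1 were level, with differences of 0.11 and 0.12 and detection in 25 of 27 and 18 of 19 cells each.

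Interferon-inducible genes did not move together, although Ifi27 had the highest difference of all. Ifi27, an interferon-inducible mitochondrial protein gene, ranged from 0 to 10.6 with a median of 7.28 in 051716 and from 0 to 7.22 with a median of 0 in 051816. The difference was 4.10, and it was detected in 21 of 27 cells (77.8%, interval 57.7 to 91.4) and 7 of 19 (36.8%, interval 16.3 to 61.6). Across 24 described members the median was −0.08, with 9 positive and 15 negative; 2 members (8.33%, where 0.659% of all described genes were) were at least 2 higher in 051716 and 1 (4.17%, where 2.95% were) in 051816. Ly6a, which interferon also induces, was the other of the 2, and the single member on the opposite side was Ifi35, at −2.06. Ifit1, Isg15 and Bst2 reached 5 TPM in at most 2 cells of either prefix. Ly6a and Ifi27 were detected together in 16 of 27 and 2 of 19 cells.

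The remaining genes among the 15 highest came from several functions. Fundc1, a mitophagy receptor, differed by 3.02 and was detected in 17 of 27 and 6 of 19 cells. Mtif2, a mitochondrial translation initiation factor, differed by 2.60 (11 and 2 cells), and Mrpl1, a protein of the mitochondrial ribosome, by 2.53 (10 and 1 cells). These 3 act in mitochondria. Akr1c13, an aldo-keto reductase, differed by 2.73 (12 and 3 cells), and Mpp6, a scaffold protein at membranes, by 2.64 (12 and 4 cells). Mtpn differed by 2.56 (19 and 7 cells), Zfml by 2.54 (12 and 3 cells), and Ptpra, a receptor tyrosine phosphatase, by 2.47 (17 and 6 cells). Ranges overlapped between the prefixes for each of these genes.

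Proteasome subunits were lower in 051716 on the log scale. Of 30 described subunits 22 had negative and 8 positive differences, the median was −0.93, and 5 were at least 2 higher in 051816 (16.7%, where 2.95% of all described genes were) with 0 at least 2 higher in 051716. Psma1, an alpha-ring subunit of the 20S core, led with values from 0 to 11.4 and a median of 0 in 051716 and from 0 to 11.3 with a median of 8.56 in 051816. It was detected in 9 of 27 cells (33.3%, interval 16.5 to 53.96) and 16 of 19 (84.2%, interval 60.4 to 96.6), a difference of −4.27. The highest cells of both prefixes were level, and the prefixes differed in how many cells had the transcript.

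The next were Psma4 at −2.82, the catalytic subunit gene Psmb5 at −2.40, Psma3 at −2.36 and Psmd2, of the regulatory particle, at −2.28. By the median of cells above 0 the sign changed for Psmb5, at 1.76, and for Psma3, at 0.34, and Psma3 was at 0.0066 by the log2 ratio of mean TPM. Psma4 was detected in 16 of 27 and 17 of 19 cells and Psma3 in 15 of 27 and 18 of 19. On the opposite side Psmd13 differed by 0.90, Psmd8 by 0.83 and Psmb7 by 0.70. The list's median was −0.11 by the ratio of mean TPM, with 0 members past 2, and 0.44 by the median of cells above 0, opposite in sign, which takes the level only in cells that had a transcript. Adjusted for genes detected per cell, the median was −0.58. By cell, a median of 14 of the 30 subunits reached 5 TPM in 051716, from 5 to 22, and 18 in 051816, from 8 to 26; the mean level of the list had a Spearman correlation with genes above 0 of 0.39 and 0.72 in the 2 prefixes. 

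Genes of oxidative phosphorylation had a median of −0.36 over 56 described subunits, with 37 negative and 19 positive. The median was −0.11 adjusted for genes detected per cell and −0.081 by the log2 ratio of mean TPM, and it ran from −0.59 to −0.21 when single cells were left out. The mean level of the list had a Spearman correlation with genes above 0 of 0.60 over the 27 cells and 0.87 over the 19. At a difference of at least 2 were 6 subunits higher in 051816 (10.7%, where 2.95% of all described genes were) and 1 higher in 051716 (1.79%, where 0.659% were). Ndufs3, a core subunit of complex I, ranged from 0 to 9.15 with a median of 0 in 051716 and from 0 to 10.4 with a median of 7.49 in 051816. The 5 TPM level was reached in 6 of 27 and 13 of 19 cells, and the difference was −3.89. Ndufa10 differed by −2.88, Cycs, which encodes cytochrome c, by −2.87, and Ndufv1 by −2.53. Atp5o, an ATP synthase subunit, was the one on the other side at 2.21, yet its ratio of mean TPM had the opposite sign at −0.29. A median of 34 of the 56 members reached 5 TPM by cell in 051716 and 43 in 051816.

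The gene with the largest difference toward 051816 was Serpina3g, a serine protease inhibitor known from activated blood cells. It ranged from 0 to 9.13 with a median of 0.56 in 051716 and from 0 to 12.3 with a median of 6.69 in 051816. It was detected in 6 of 27 cells (22.2%, interval 8.62 to 42.3) and 15 of 19 (78.9%, interval 54.4 to 93.9), a difference of −4.59. The Ski-WT mean of 4.08 lay between 1.73 and 6.32, the means of the prefixes.

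Other genes among the 15 lowest came from several functions. Chrac1, a histone-fold protein of chromatin remodelling, was detected in 8 of 27 and 13 of 19 cells and differed by −4.02. Slc25a4, the ADP/ATP carrier, differed by −3.24 (16 and 17 cells). Ppid, a cyclophilin, differed by −3.66 (8 and 15 cells), Nono, a paraspeckle protein, by −3.65 (16 and 16 cells), and Acot7, an acyl-CoA thioesterase, by −3.64 (3 and 10 cells). For Nono the counts of detected cells are the same, out of 27 and of 19. Degs1, the desaturase that makes ceramide, was detected in 1 and 9 cells with a difference of −3.46. Cfdp1 differed by −3.39 (6 and 11 cells), Ranbp1, a regulator of the Ran GTPase, by −3.30 (12 and 15 cells), and the predicted gene Gm11974 by −3.24 (6 and 11 cells). All of them overlapped between the prefixes.

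Cell cycle lists pointed to different sides. DNA replication genes were lower in 051716, with 18 of 21 differences negative, a median of −0.58 and 1 member at least 2 higher in 051816 (4.76%, where 2.95% of all described genes were). That member was Pcna, the sliding clamp of DNA polymerase, which was detected in 12 of 27 and 15 of 19 cells, with medians of 0.93 and 8.89 and a difference of −3.53. Adjusted for genes detected per cell, the list's median was 0.045. Mitosis genes, of which 13 of 25 were described, had a median of 0.50, 11 of 13 positive, and none at a difference of 2 in either direction. Of all described genes, 47.3% had a positive difference. Mki67, a marker of cycling cells, was detected in 7 of 27 and 1 of 19 cells (difference 1.29) and Top2a in 8 and 3 (difference 1.10), while Cdk1 was detected in 2 and 3. Few cells of either prefix held mitotic transcripts, and no phase was assigned.

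Each of the lists given here held at most 1 member at a difference of 2. Over all described genes, 0.659% were at least 2 higher in 051716 and 2.95% in 051816. Cytosolic ribosome genes had a median of 0.11 over 75 members, with Rpl30 alone past 2, at −2.24 (1.33% of the list). Splicing factors, at −0.09 over 44, and heat shock genes, at −0.19 over 18, had none. In the heat shock list Hspa1a and Hspa1b were under 5 TPM in all 46 cells, and Hspa8 was detected in all of them with a difference of −0.17. NF-kappaB genes had a median of 0.06 over 9, with the inhibitor gene Nfkbia at −1.76. Glycolytic genes had a median of 0.30 over 21, with Ldha, lactate dehydrogenase, alone past 2 at −2.20 (4.76% of the list). The unfolded protein response had a median of 0.24 over 17, with Xbp1 alone past 2 at −2.26 (5.88%). Of 6 described TGF-beta target genes none was past 2; Skil, a close relative of Ski, differed by −1.78 and the inhibitory Smad7 by 1.19. Receptors and Smads of that pathway had a median of 0.02 over 7 members.

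**Figure D4:**
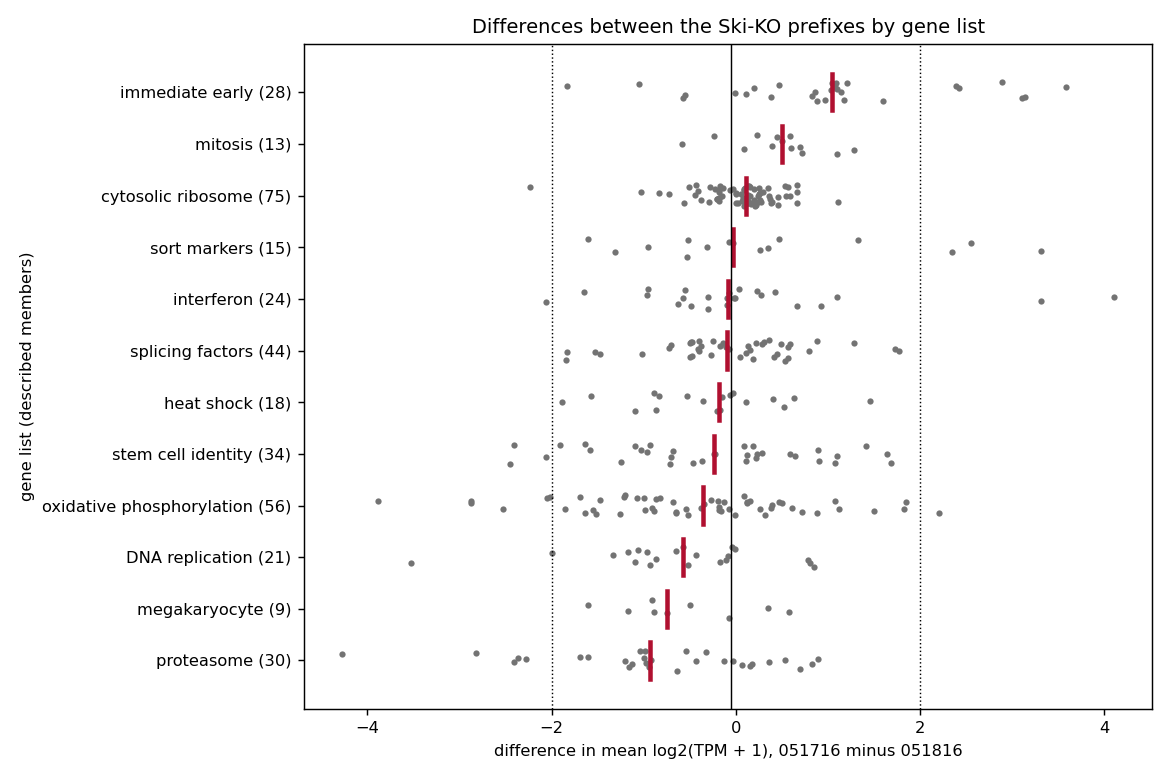
Difference in mean log2(TPM + 1), 051716 minus 051816, for the described members of 12 gene lists, with the number of members in parentheses; each point is a gene, the red bar is the list's median, the solid line is the median over all described genes (−0.05) and the dotted lines mark differences of 2. The immediate early median lies to the right (1.04) and the proteasome median to the left (−0.93), with wide spread within both lists.

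Lists of genes used as markers of other blood cells had levels above 0 in cells of both prefixes, but many members did not. Described were 6 of 19 erythroid, 9 of 16 megakaryocyte, 4 of 20 myeloid and 2 of 14 lymphoid members. A sum over a list was therefore not read as the presence of a cell type. The summed level of 19 erythroid genes ranged from 88.2 to 12527 TPM with a median of 3830 in 051716. In 051816 it ranged from 378 to 9046 with a median of 3032. Alas2 and Car1 were listed at 0 in all cells of both prefixes. Both Hbb-b2 and Hbb-bt, which hold identical values, enter the sum, so it counts beta globin more than once. Summed over 16 megakaryocyte genes the medians were 515 and 1081 TPM, with ranges of 9.50 to 5382 and 4.66 to 7742, and Ppbp and Gp1bb were at 0 in both. That list had 7 of 9 described members lower in 051716 and a median of −0.75, led by Cd9. For 20 myeloid genes the medians were 598 and 263 TPM, with ranges of 0 to 4116 and 0.42 to 2735, and Mpo, Elane and Csf1r at 0 in every cell. For 14 lymphoid genes they were 69.8 and 177 TPM, with ranges of 0 to 4114 and 0 to 2614, and Il7r, Cd4 and Rag2 at 0. Macrophage and mast cell lists had medians of 0 in both prefixes, and the stroma list medians of 4.81 and 3.43 TPM. The part of these markers in the differences above was not tested.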

How the data were processed

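Single Ski-KO cells of the 2 label prefixes were compared over a table of log2(TPM + 1) that the authors deposited; the log2 scale was read from the values, which return to nearly equal TPM totals in all cells. The submitters' processing notes name Bowtie2, RSEM and mm9, and no version or role. No counts or molecular identifiers are given, so depth is unknown, and no cell was removed and no doublet caller was run. The prefix was taken from each cell's description. With each cell a deposited sample and no animal or culture named, a prefix counted as 1 sample and no test was made.

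The difference of mean log2 values was computed for each gene above 0 in 25% or more of either prefix's cells. Beside it stand the log2 ratio of mean TPM, with 1 TPM added to each mean, and detection at 5 TPM or more, with exact Clopper-Pearson intervals at 95%. Genes named are the 4 markers, the 15 highest and 15 lowest whose 3 measures shared a direction, sex-linked genes aside, up to 6 members by size in each list, and gate and sex-linked genes as checks; some genes that this rule takes are not reported here. Further list members are named where a role or the opposite direction is described, a choice made with their values in view. Members and the 30 lists were chosen with earlier results of these data known. The arithmetic of the difference was checked by adding known shifts to genes of the Ski-KO cells in shuffled order. Promoters came from RefSeq (GRCm38.p6), used apart from the mm9 values. Alternatives covered averaging, pseudocounts, detection, scaling, filters, well columns and leaving out cells. Tools were scipy 1.17.1, matplotlib 3.10.9, pandas 2.3.3 and numpy 2.4.6 under Python 3.11.15.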

Additional observations from a re-analysis of the deposited data

How the results depend on the processing

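All 32 genes chosen as markers, highest or lowest kept their direction under every alternative run for single genes, except Dusp2, whose median over all cells was 0 in both prefixes. The 15 highest and 15 lowest were chosen for large differences with the same sign by the log2 ratio of mean TPM and by detection. Their agreement by that ratio was therefore fixed by the choice, and the choice of large differences favours agreement in the other settings. The number of genes at the limit moved with the measure. Genes higher in 051716 (42) and in 051816 (188) numbered 777 and 613 by the log2 ratio of mean TPM, 171 and 458 by the median over all cells, 1266 and 962 by the median over cells above 0, 205 and 578 with a pseudocount of 0.1 TPM, 8 and 53 with one of 5 TPM, and 68 and 121 with detected genes as a covariate. With only the 051716 cells of well columns 1 to 6 there were 97 higher in 051716, and with those of columns 7 to 12 there were 128 and 363; a limit of 1.5 gave 156 and 467, and a limit of 3 gave 6 and 25. Leaving out each cell in turn gave 37 to 50 and 169 to 223.

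The median over all genes (−0.05) was 0.061 by the log2 ratio, 0.28 by the median of cells above 0 and 0.064 with the covariate. The immediate early median (1.04) was 0.26 by the median over all cells, 0.67 with a pseudocount of 5 TPM and 0.49 with no filter; 10 members passed the limit by cells above 0 and 3 at a limit of 3, in place of 6. The sort marker median (−0.03) was −0.34 by the log2 ratio, 0.11 with values under 5 TPM set to 0, −0.53 by cells above 0, −0.17 after quantile normalization (run over values above 0), −0.14 for either well range, 0.35 with a 50% filter, and −0.14 to 0.23 leaving out a cell.

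The proteasome median (−0.93) was −0.11 by the log2 ratio, −0.56 with a pseudocount of 5 TPM, −0.58 with the covariate, −0.40 for well columns 1 to 6 and, with its sign changed, 0.44 by cells above 0. Its members past the limit (5) numbered 0 by the log2 ratio, 8 by the median over all cells, 2 with a pseudocount of 5 TPM, 3 by cells above 0 and 1 at a limit of 3. The oxidative phosphorylation median (−0.36) was −0.081, −0.090, −0.76, −0.17, −0.0395 and −0.11 by the log2 ratio, the median over all cells, pseudocounts of 0.1 and 5 TPM, cells above 0 and the covariate, −0.61 without 6 cells of fewest or most genes, and −0.59 to −0.21 leaving out a cell. Signs also changed for the DNA replication median (0.045 with the covariate), Atp5o (−0.29 by the log2 ratio), Psma3 (0.0066 by the log2 ratio, 0.34 by cells above 0), Psmb5 (1.76) and Gnai3 (0.29), the last pair by cells above 0. The cause of these changes was not tested. No paired analysis was possible because no label links cells or animals of the 2 prefixes. Depth is unknown for TPM, so a transcript listed at 0 cannot be told from one that was not sampled.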

Other observations

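Outside the lists described, genes of heterotrimeric G proteins and their regulators had a median difference of 0.22 over 18 described members, with 2 at least 2 higher in 051816 (11.1%, where 2.95% of all described genes were). Gnai3, an inhibitory alpha subunit, was detected in 7 of 27 cells of 051716 and 13 of 19 of 051816 with a difference of −2.69, which was 0.29 by the median of cells above 0, and the gamma subunit gene Gng10 in 10 of 27 and 13 of 19 with a difference of −2.59. Rgs2, which shortens G protein signals, was detected in 16 of 27 and 6 of 19 cells with a difference of 1.68.

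Among erythroid genes Nfe2 was detected in 16 of 27 and 16 of 19 cells, with a difference of −1.82. Hbb-b2 and Hbb-bt hold identical values in every cell, so they count as 1 uncertain measurement of beta globin, with a difference of 1.52 and detection in 10 of 27 and 3 of 19 cells. The Y-linked genes did not share a direction: Ddx3y differed by −1.68 and Eif2s3y, detected in 8 of 27 and 1 of 19 cells, by 1.66.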
